A study of Mus musculus with 5 samples.

Results

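The nuclear oxidative phosphorylation (OXPHOS) genes were followed through mouse bone marrow (BM) after cyclophosphamide (CTX), an alkylating chemotherapy drug. A gene was a member if its symbol began with Nduf followed by a, b, c, s or v, was Sdha, Sdhb, Sdhc or Sdhd, or began with Uqcr, with Cox and a digit from 4 to 8, or with Atp5, and carried no pseudogene suffix. This rule used names and no measured value, and it found 93 of the 31053 genes in the count matrices, all annotated as protein coding. By symbol, 38 members belonged to complex I, 4 to complex II, 8 to complex III, 18 to complex IV and 17 to complex V, and 8 were Ndufaf assembly factors of complex I. Ndufa4 was counted with complex I by its symbol, although its protein is a complex IV subunit. The symbol Atp5o occurred under 2 identifiers, and its values below are those of ENSMUSG00000022956.

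Mice were BALB/c, 4 to 8 weeks old by the study's methods, and untreated (naive) or injected intraperitoneally with CTX at 150 mg/kg. Whole BM was taken from naive mice (naive BM), on day 2 (D2 CTX BM) and on day 7 (D7 CTX BM), with cells of 3 mice pooled in equal numbers, red cells lysed and dead cells removed. CD11b+Ly6Chi monocytes were sorted from BM of naive and CTX-treated mice (sorted monocytes). The labels give no day for the sorted CTX library, and the study's text gives day 7. Each of the 5 groups was 1 library of unique molecular identifiers (UMIs) from the 10x 3′ assay, so the spread between mice or libraries is not known, no test was possible, and every interval is a 95% interval for counting error only.

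The libraries held 2223 to 8605 barcodes and 22694817 to 68459527 UMIs, and 1891 to 8290 barcodes with at least 200 genes and under 20% mitochondrial UMIs were kept as cells. Each library held fewer barcodes than the cells that the study counts. The naive and CTX sorted libraries, with 2223 and 2978 barcodes, fell furthest short. Any pair of libraries shared 2 to 16 barcodes. Median UMIs per kept cell were 3953.5 in naive BM, 3033.5 on day 2, 7189.5 on day 7, 10299 in naive sorted monocytes and 9694 in CTX sorted monocytes. The D7 CTX BM library stood apart in make-up, since its 20 most abundant genes took 46.0% of its UMIs, against 26.6% in naive BM and 25.1% in D2 CTX BM. The calcium-binding proteins S100a8 and S100a9 alone took 29.3% there, 13.4% in naive BM and 11.8% in D2 CTX BM.

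OXPHOS is carried out by protein complexes of the inner mitochondrial membrane. Complexes I (NADH dehydrogenase) and II (succinate dehydrogenase) pass electrons to ubiquinone, complex III passes them to cytochrome c, complex IV (cytochrome c oxidase) passes them to oxygen, and complex V (ATP synthase) uses the resulting proton gradient to make ATP. Most subunits are encoded in the nucleus and imported, while a small core of complexes I, III, IV and V is encoded by mitochondrial DNA. In marrow, neutrophils are known for few mitochondria and a glycolytic metabolism, whereas dividing progenitors and monocytes rely more on respiration.

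Together the members gave 21617 counts per 1e+06 UMIs (CPM) in naive BM, 17419 CPM on day 2 and 14699 CPM on day 7. Sorted monocytes were higher and alike, at 25178 CPM in the naive and 25423 CPM in the CTX library. Per cell this was 140 member UMIs in naive BM, 96.5 on day 2, 120 on day 7, 297 in naive sorted and 284 in CTX sorted monocytes. Because the assay counts 1 UMI per captured 3′ end, levels were not divided by gene length. CPM are shares of all UMIs, so a lower level cannot be told apart from more RNA of other genes, and in whole BM fewer cells of a type cannot be told apart from less RNA per cell.

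**Figure D1:**
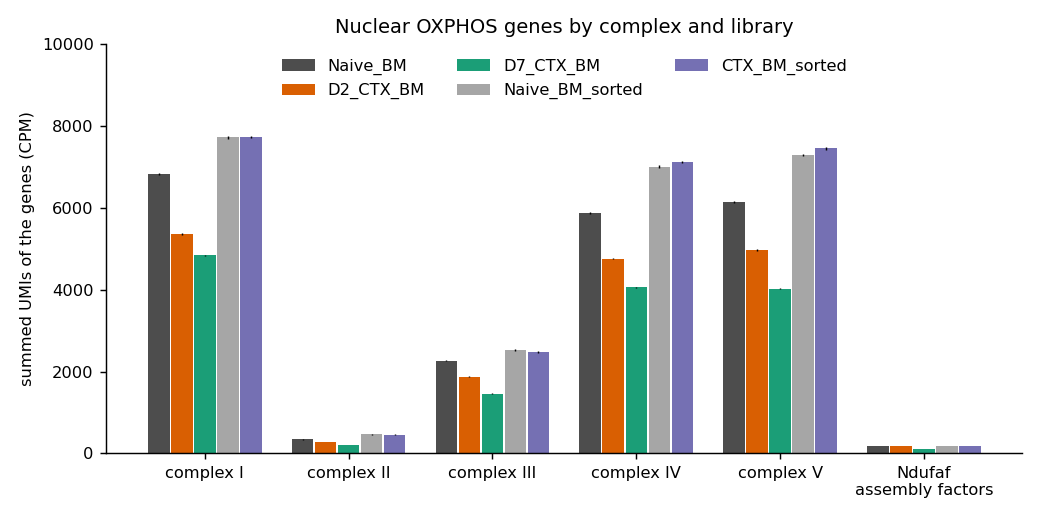
Summed level of the members of each complex (vertical axis, CPM) in the 5 libraries (bars, with 95% Poisson intervals). In each complex naive BM stood above D2 CTX BM and D2 CTX BM above D7 CTX BM, while the sorted libraries stood close together. For all members together, the order of day 2 and day 7 depended on the processing.

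The NADH dehydrogenase subunits of complex I summed to 6818 CPM in naive BM, 5356 CPM on day 2, 4837 CPM on day 7, 7718 CPM in naive sorted and 7732 CPM in CTX sorted monocytes. Complex II, the smallest group, gave 341, 282, 213, 468 and 459 CPM in the same order. Complex III gave 2262, 1876, 1454, 2517 and 2477 CPM. The cytochrome c oxidase subunits of complex IV gave 5866, 4760, 4060, 7006 and 7115 CPM. The ATP synthase subunits of complex V gave 6142, 4967, 4022, 7289 and 7453 CPM. The Ndufaf factors, which help to assemble complex I, gave 189, 177, 113, 181 and 186 CPM. All groups thus had the same order of CPM in whole BM, with naive BM highest and D7 CTX BM lowest. The order of day 2 and day 7 depended on the processing, since for all members together their log2 ratio ranged from -0.28 to 0.38 over other settings.

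Within each complex the levels of single members in naive BM differed widely. Cox8a, a small subunit of complex IV, was the highest member at 877 CPM, and Cox4i1, the general form of subunit 4, followed at 865 CPM. The highest members of the other complexes were Atp5e of the ATP synthase stalk at 723 CPM, Ndufa4 at 590 CPM, the complex III hinge protein Uqcrh at 585 CPM and Sdhb at 113 CPM. Ndufaf8 led the assembly factors at 61.7 CPM. At the other end, 6 members stayed under 5 CPM in every library. Of these Cox7b2, Cox8b and Cox8c had 0 UMIs in all 5 libraries, which allows at most 0.0651 CPM each in naive BM. Cox4i2, the form of subunit 4 known from lung, had 5 to 22 UMIs per library, Ndufa4l2 had 0 to 8, and the other Atp5o identifier had 1 UMI in all.

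On day 2 the members were lower than in naive BM as a group, with a log2 ratio of their summed level of -0.31 (-0.32 to -0.31). Of the 93 members, 81 reached at least 200 UMIs over the pair of libraries and a mean of at least 20 CPM, and 73 of these were below 0. Past 0.5 log2 units, 17 of the 81 were lower, where 8.77% of all 5744 genes tested were lower, and 1 was higher, where 23.4% of all genes were. The median member was at -0.31 and the median gene at 0.15, so that set against the median gene the members' sum was at -0.46. Under that scaling 32 of 81 members were lower, against 14.3% of all genes. The direction was the same in all alternatives tried, from -0.53 to -0.30.

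The 5 lowest members on day 2 came from complexes V, I and IV and the assembly factors. Atp5o, the stalk protein that confers oligomycin sensitivity, was at 280 CPM in naive BM and 151 CPM on day 2, a log2 ratio of -0.88 (-0.93 to -0.84). Ndufs8, an iron-sulfur subunit of complex I, was at 103 and 58.6 CPM (-0.81). The complex IV subunits Cox7b, at 282 and 166 CPM (-0.76), and Cox6a1, at 291 and 179 CPM (-0.70), and the assembly factor Ndufaf3, at 40.9 and 24.7 CPM (-0.71), were the others. At the upper end Cox6b2, the form of subunit 6b known from testis, was at 57.9 CPM in naive BM and 100 CPM on day 2, a log2 ratio of 0.78 (0.72 to 0.86), and was the only member past 0.5. Without the 5% deepest cells of each library this ratio was 0.15. Ndufaf4 followed at 27.7 and 36.9 CPM (0.40), then Cox6a2 (0.22), Atp5k (0.15) and Ndufaf2 (0.11, with an interval from -0.03 to 0.26).

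By complex, 9 of 37 tested members of complex I, 1 of 4 of complex II, 1 of 8 of complex III, 2 of 13 of complex IV, 3 of 15 of complex V and 1 of 4 Ndufaf factors were lower by 0.5 on day 2, where 8.77% of all genes were. In complex II, the iron-sulfur subunit Sdhb was at 113 CPM in naive BM and 78.6 CPM on day 2 (-0.52), the membrane anchors Sdhd (-0.35) and Sdhc (-0.20) were also below 0, and the flavoprotein Sdha was at 78.1 and 82.9 CPM (0.08). The catalytic ATP synthase subunits Atp5a1 (-0.13) and Atp5b (-0.28) lay nearer to 0 than Atp5o and Atp5h (-0.64).

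**Figure D2:**
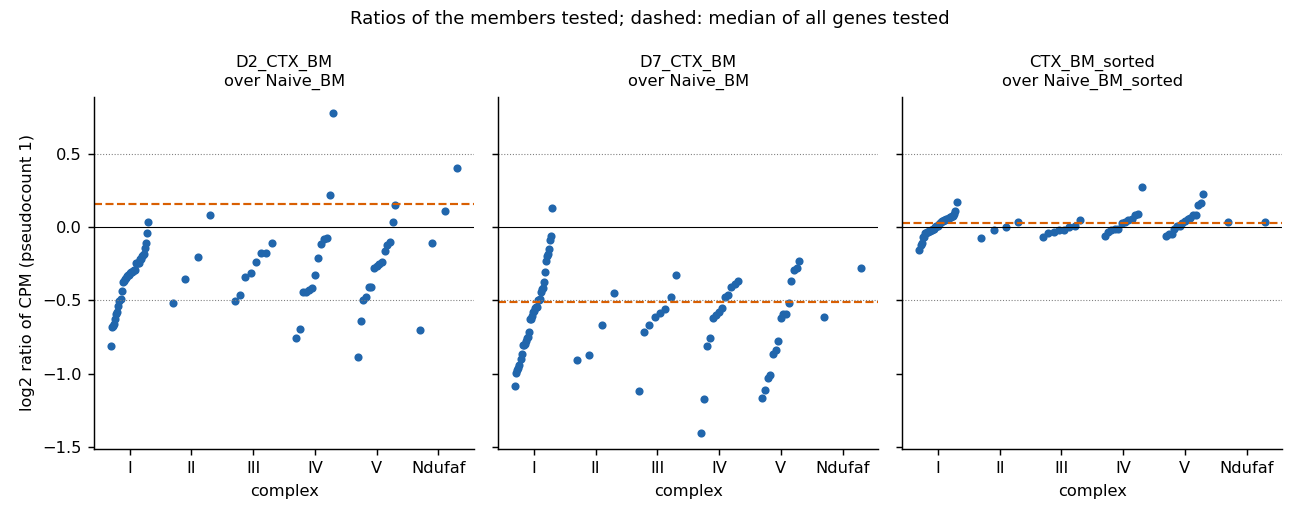
Log2 ratio of CPM (vertical axis, pseudocount of 1) of each member tested, by complex (horizontal axis), for day 2 and day 7 over naive BM and for CTX over naive sorted monocytes. The dashed line is the median of all genes tested (0.15, -0.51 and 0.03), dotted lines mark 0.5 and -0.5, and Cox6b2 is the point at 0.78 on day 2.

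Day 7 was set against the same naive library as day 2. The summed ratio to naive BM was -0.56 (-0.56 to -0.55), and 51 of 79 members tested were lower by 0.5, but so were 50.9% of all 4852 genes tested. None was higher, where 7.13% of all genes were. The median member was at -0.59 and the median gene at -0.51. Set against the median gene, the members' sum was at -0.04, with 7 of 79 members lower and 1 higher, where 18.3% and 22.5% of all genes were. With the 20 most abundant genes of each library left out of the total, the ratio was -0.11. The members' level on day 7 was thus close to that of the median gene.

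By complex, 22 of 37 tested members of complex I, 3 of 4 of complex II, 6 of 8 of complex III, 8 of 13 of complex IV, 11 of 15 of complex V and 1 of 2 Ndufaf factors were lower by 0.5, where 50.9% of all genes were.

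The 79 members tested ranged from -1.40 to 0.13 on day 7. Ndufaf4, which was below the filter on the mean level, was at 27.7 CPM in naive BM and 8.27 CPM on day 7 (-1.63). Of those tested, Cox6a2, at 41.9 CPM in naive BM and 15.2 CPM on day 7 (-1.40), and Cox6b2, at 57.9 and 25.1 CPM (-1.17), were lowest. Atp5g1, which encodes subunit c of the membrane ring of complex V, was at 206 and 91.1 CPM (-1.17). Uqcr11 of complex III was at 336 and 154 CPM (-1.11), and Atp5a1, the catalytic alpha subunit of complex V, at 357 and 164 CPM (-1.11). At the other end Ndufv3, a subunit of the NADH-binding module of complex I, was at 199 CPM in naive BM, 160 CPM on day 2 and 218 CPM on day 7, the only tested member above 0 on day 7 at 0.13 (0.09 to 0.17). The complex I subunits Ndufb7 (-0.06), Ndufa13 (-0.09), Ndufa8 (-0.15) and Ndufs4 (-0.19) followed.

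The promoters of Atp5g1 and Ndufv3 are shown because these genes lay near opposite ends on day 7. They are the 250 bases before the RefSeq start site in GRCm38.p6, at chr11:96075632-96075881 on the minus strand and chr17:31519865-31520114 on the plus strand. Capitals mark matches, on either strand, to 6 short motifs, namely SP1 (GGGCGG), the ETS family (CCGGAAG), YY1 (AAGATGGC), NRF1 (GCGCANGC), the CCAAT box (CCAAT) and the TATA box (TATAAA).
Atp5g1: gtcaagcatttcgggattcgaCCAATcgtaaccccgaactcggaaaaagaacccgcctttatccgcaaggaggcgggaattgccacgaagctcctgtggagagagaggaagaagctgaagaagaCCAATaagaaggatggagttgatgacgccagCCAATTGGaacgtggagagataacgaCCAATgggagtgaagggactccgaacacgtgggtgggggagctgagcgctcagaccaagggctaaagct
Ndufv3: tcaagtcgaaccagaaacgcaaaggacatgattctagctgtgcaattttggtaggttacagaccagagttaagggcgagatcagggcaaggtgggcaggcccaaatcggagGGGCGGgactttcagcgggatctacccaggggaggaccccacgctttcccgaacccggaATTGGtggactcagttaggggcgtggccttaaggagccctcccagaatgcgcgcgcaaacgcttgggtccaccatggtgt
The Atp5g1 window held 5 CCAAT matches, of which 2 overlapped on opposite strands, and the Ndufv3 window held 1 CCAAT and 1 SP1 match. RefSeq promoters were found for 74 of the 93 members. Of their 79 windows of the same 250 bases, 25.3% held the NRF1 letters, 17.7% the ETS letters, 43.0% CCAAT, 36.7% the SP1 letters, 8.86% TATAAA and 1.27% the YY1 letters. Over all 32851 windows these shares were 8.30%, 6.91%, 33.8%, 32.7%, 12.4% and 1.56%. Such a match is a description of the letters and not of binding. Bases after the start site were not searched, so these shares do not cover motifs placed there.

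Day 7 against day 2 gave a summed ratio of -0.24 (-0.25 to -0.24). Of 80 members tested, 21 were lower by 0.5, where 57.4% of all genes were, and none was higher, where 4.72% of all genes were. This direction depended on the scaling. Against the median gene, at -0.62, the sum was at 0.38, with 31 of 80 members higher and 4 lower, where 21.6% and 23.0% of all genes were. The steepest members were Ndufaf4, at 36.9 CPM on day 2 and 8.27 CPM on day 7 (-2.03), Cox6b2, at 100 and 25.1 CPM (-1.95), Cox6a2 (-1.62), Atp5g1 (-1.20) and Atp5k (-1.01). The highest were Ndufv3 (0.44), Ndufaf3 (0.42), Ndufb11 (0.31), Ndufb7 (0.27) and Atp5j (0.22).

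Sorted monocytes showed almost no difference in these genes. The summed ratio of CTX over naive sorted monocytes was 0.01 (0.01 to 0.02), and the 78 members tested ranged from -0.16 to 0.27. None was higher by 0.5, where 0.742% of all 5394 genes tested were, and none was lower, where 2.56% were. The highest were Cox6b2, at 27.1 and 32.8 CPM (0.27), Atp5o, at 262 and 307 CPM (0.23), Ndufb9 (0.17), Atp5g1 (0.16) and Atp5g2 (0.15). The lowest were Ndufb2, at 154 and 137 CPM (-0.16), Ndufa1 (-0.12), Ndufa3 (-0.11), Sdhd (-0.07) and Ndufa6 (-0.07). By complex the sums lay between -0.03 for complex II and 0.04 for the Ndufaf factors.

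Cells were gated into classes by marker genes, none of which is a member, and 2.91% to 15.6% of cells per library stayed unassigned. Of the sorted cells, 1775 of 1891 naive and 2330 of 2564 CTX cells fell into the monocyte class. All 6 granulocyte-monocyte progenitor (GMP) markers were detected in the GMP class of each whole-marrow library. The D2 CTX GMP class stood apart, with 100 cells of 36323.5 median UMIs, against 180 cells of 10444.5 in naive BM and 411 of 9721 on day 7, and the azurophil granule enzyme Elane was at 2227 CPM there, against 14600 and 14010 CPM. The antibody light chain Igkc was at 2763 CPM there and 109 CPM in the naive GMP class. The day 2 and naive GMP classes may thus not hold the same cells, and the part of this in the values of the class was not tested. The class rich in major histocompatibility complex (MHC) class II genes held the B cell gene Cd79a at 1228 CPM in naive BM, and was not called myeloid here.

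In naive BM the members were highest in the GMP class, at 31331 CPM (31085 to 31578), and in erythroid cells, at 30023 CPM. B lineage cells (27006 CPM), natural killer (NK) cells (26839 CPM), monocytes (26109 CPM), basophils or mast cells (24831 CPM) and plasmacytoid dendritic cells (24135 CPM) followed. The MHC class II-rich class was at 18697 CPM and T cells at 16903 CPM. Neutrophil precursors were at 14635 CPM, immature neutrophils at 9068 CPM and mature neutrophils at 7738 CPM. Among these classes of at least 50 cells, neighbours in the order had intervals that did not overlap, except B lineage with NK cells and basophils or mast cells with plasmacytoid dendritic cells, but these intervals do not include the spread between mice. Of the 83 members with at least 20 CPM in some class, 30 had their highest level in the GMP class and 28 in erythroid cells, and 57 had their lowest in mature neutrophils and 21 in immature neutrophils. The same counts were not made over all genes, so whether they are particular to the members was not tested.

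The place of the neutrophil classes in this order depended on a few abundant genes. The 20 most abundant genes of each class took 55.2% of UMIs in neutrophil precursors, 54.5% in immature and 46.5% in mature neutrophils of naive BM, against 13.6% to 20.3% in the other classes. With these genes left out of each class, an alternative chosen after seeing the data, precursors were at 32673 CPM, below only GMP (39304 CPM) and erythroid cells (37513 CPM) and above B lineage cells (31250 CPM), so that they stood at rank 3 in place of rank 10 of the 12 classes. Immature neutrophils, at 19948 CPM, and mature neutrophils, at 14471 CPM, remained lowest.

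**Figure D3:**
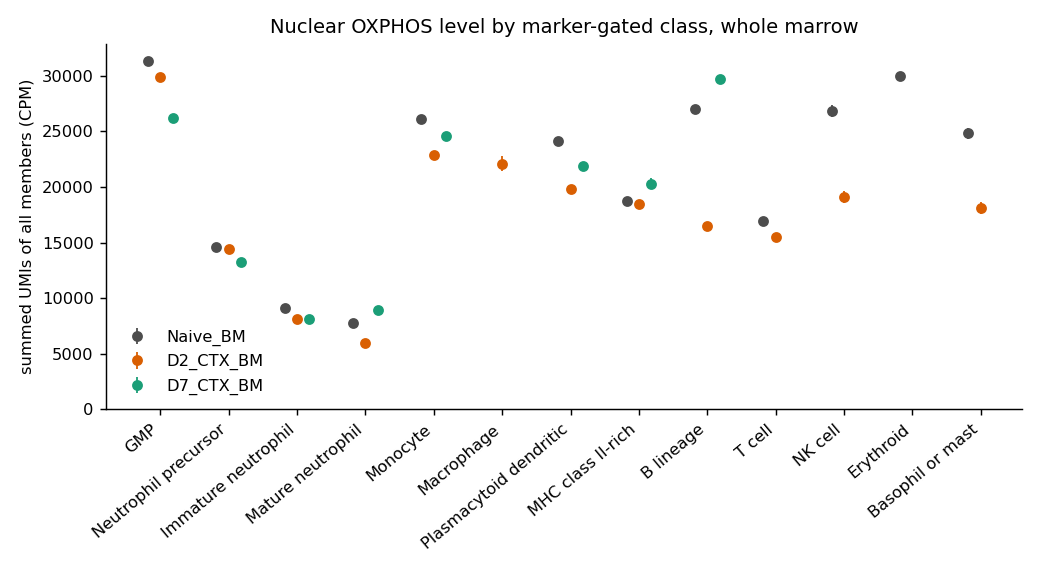
Summed level of all members (vertical axis, CPM from 0, with 95% Poisson intervals) in each marker-gated class of at least 50 cells (horizontal axis) in the 3 whole-marrow libraries (colours). The level steps down from GMP to mature neutrophils in naive BM, from 31331 to 7738 CPM, and B lineage cells show the widest gap between D2 CTX BM and the other libraries.

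Along the neutrophil series of naive BM the log2 ratio of the members' sum was -1.10 from GMP to precursor, -0.69 from precursor to immature and -0.23 from immature to mature cells. In all, mature neutrophils were 4.05-fold lower than GMP in naive BM, 4.99-fold lower on day 2, where the GMP class stood apart as above, and 2.93-fold lower on day 7. The first step shrank most when the 20 most abundant genes of each class were left out, to -0.27, while the later steps were at -0.71 and -0.46. Set against the median gene of each step, the 3 steps were at -0.67, -0.77 and -0.37. From GMP to mature cells the ratio with those genes left out was -1.44 in naive BM, in place of -2.02, -1.94 on day 2, in place of -2.32, and -0.98 on day 7, in place of -1.55. Of 78 members tested at the first step, 72 were lower by 0.5, where 47.1% of all genes were, and none was higher, where 18.3% were. At the second step 55 of 75 were lower, where 29.7% of all genes were, and none was higher, where 32.7% were. At the last step 18 of 58 were lower, where 15.2% of all genes were, and 1 was higher, where 28.2% were. On day 7 the last step went the other way, at 0.14, but it was at -0.19 with the 20 most abundant genes of each class left out and at -0.24 against the median gene.

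Single members followed the series to different degrees in naive BM. Uqcrb of complex III was at 741 CPM in GMP, 257 CPM in precursors, 77.9 CPM in immature and 36.7 CPM in mature neutrophils. Ndufa4 stood at 1337, 401, 137 and 120 CPM along the same steps, and Atp5b, the catalytic beta subunit of complex V, at 425, 162, 104 and 93.7 CPM. Cox8a held more of its level, at 1311, 622, 474 and 561 CPM, and Sdhb was at 106, 65.8, 54.4 and 66.5 CPM. From GMP to mature cells, complex III had the lowest ratio of the complexes, at -2.28, and complex II the highest, at -1.08.

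The make-up of whole BM moved with its OXPHOS level. Neutrophil precursors gave 19.8% of UMIs in naive BM, 11.9% on day 2 and 43.9% on day 7, and immature neutrophils 10.4%, 19.7% and 22.1%. B lineage cells gave 20.4%, 12.0% and 2.51%, and erythroid cells 17.5%, 3.52% and 0.510%. Giving each class its naive level and the day 7 make-up put the members at 16346 CPM, a log2 ratio of -0.40 to naive BM, of the -0.56 seen. The reverse, day 7 levels with the naive make-up, gave 21528 CPM, a ratio of -0.01. For day 2 the make-up alone gave -0.18 and the levels alone -0.20, of the -0.31 seen. This arithmetic used all classes, including those with few cells.

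Within classes on day 2, the members' sum was below that of naive BM in all 11 named classes with at least 50 cells in each library, from -0.71 to -0.02. With all deposited barcodes the GMP class was at 0.04, and with a stricter gate neutrophil precursors were at 0.00. Neutrophil precursors were at -0.02, with 5 of 78 members lower by 0.5, where 4.37% of all genes were, and 2 higher, where 23.8% were. The 2 were Cox6b2 (1.68) and Cox7a2l (0.81), which has a role in joining complexes III and IV. In immature neutrophils (-0.16) 4 of 70 were lower, where 1.61% of all genes were, and none was higher, where 23.6% were. Monocytes went from 26109 to 22870 CPM (-0.19), with 3 of 78 lower, where 8.32% of all genes were, and 1 higher, where 14.1% were. The 3 were Ndufs8 (-0.94), Sdhb (-0.78) and Ndufb4 (-0.50), and the 1 was Cox6b2.

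In the GMP class, whose cells differed in depth, Elane and Igkc between the libraries, the sum was at -0.07, with 10 of 80 members lower, where 8.01% of all genes were, and 9 higher, where 40.6% were. Its lowest was Cox7b (-1.26) and its highest Cox6b2 (1.71), followed by Sdha (0.78) and Ndufa9 (0.70). Mature neutrophils went from 7738 to 5989 CPM (-0.37), plasmacytoid dendritic cells to 19788 CPM (-0.29), NK cells to 19080 CPM (-0.49) and basophils or mast cells to 18103 CPM (-0.46). T cells (-0.13) and the MHC class II-rich class (-0.02, with an interval from -0.06 to 0.02) lay nearer to 0. The unassigned cells, which gave 20.4% of UMIs on day 2, went from 18330 to 20927 CPM (0.19).

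B lineage cells had the lowest ratio on day 2, from 27006 CPM in naive BM to 16495 CPM (-0.71), and stood at 29748 CPM on day 7 (0.14). On day 2, 64 of 79 members were lower by 0.5, where 17.9% of all genes were, and none was higher, where 32.3% were. Ndufv2 (-1.24), Ndufb8 (-1.22) and Atp5o (-1.18) were lowest, and Sdha (0.04) and Ndufs1 (0.17) alone were above 0. The make-up of the class moved too. Of its cells, 812 of 1744 in naive BM, 149 of 1424 on day 2 and 112 of 180 on day 7 were cycling by 10 cell cycle genes, and the mature B cell gene Ms4a1 was at 207 CPM in naive BM, 1605 CPM on day 2 and 4.69 CPM on day 7. The part of this make-up in the ratio was not tested. In a split by cycling, the day 2 ratio was -0.46 within cycling and -0.34 within non-cycling B lineage cells. Median depth of the cycling cells was 6132.5 UMIs in naive BM and 2533 UMIs on day 2. At this day 2 depth a lone UMI of the 10 genes was enough to call a cell cycling. The split may thus not set like cells against each other, and it could not hold cycling constant.

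On day 7 the classes lay nearer to naive BM than the whole library did. GMP went to 26217 CPM (-0.26), with 10 of 80 members lower by 0.5, where 13.1% of all genes were, and none higher, where 5.35% were. Neutrophil precursors went to 13244 CPM (-0.14), with 2 of 77 lower, where 4.08% were, and none higher, where 1.01% were. Immature neutrophils went to 8128 CPM (-0.16), with 4 of 68 lower, where 19.9% were, and none higher, where 1.67% were. With the 20 most abundant genes of each library left out this ratio was 0.15. Monocytes went to 24609 CPM (-0.09), with none of 78 lower, where 1.99% were, and 1 higher, where 1.89% were, which was Cox6b2 (0.56). Mature neutrophils stood at 8950 CPM (0.21) and plasmacytoid dendritic cells at 21865 CPM (-0.14). In the monocyte class of the sorted libraries, with 1775 and 2330 cells, the ratio was 0.01, and none of 78 members was lower, where 2.37% of all genes were, or higher, where 0.389% were.

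The 13 subunit genes of mitochondrial DNA went the other way from the nuclear genes on day 2. They summed to 33920 CPM in naive BM, 42483 CPM on day 2, 21642 CPM on day 7, 42493 CPM in naive sorted and 43617 CPM in CTX sorted monocytes. The log2 ratio was 0.32 on day 2, with 13 of 13 genes above 0, and -0.65 on day 7, with 13 of 13 below 0, both against naive BM. Of all genes tested, 37.3% were below 0 on day 2 and 78.0% on day 7, with the median gene at 0.15 and -0.51. In sorted monocytes it was 0.04. Nuclear UMIs per mitochondrially encoded UMI were 0.637 in naive BM, 0.410 on day 2, 0.679 on day 7, 0.593 in naive sorted and 0.583 in CTX sorted monocytes.

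In all 11 classes the mitochondrially encoded sum was above naive BM on day 2, from 0.07 in GMP to 0.88 in mature neutrophils. The median gene tested in these classes lay between -0.22 in NK cells and 0.37 in GMP. In GMP the mitochondrially encoded sum was thus below the median gene, and in the other classes it was above it. The nuclear sum was below naive BM, but not under every setting in GMP and neutrophil precursors. In the MHC class II-rich class the interval of the nuclear sum included 0. Neutrophil precursors were at 14988 CPM of mitochondrially encoded UMIs in naive BM, 23430 CPM on day 2 and 14433 CPM on day 7, and monocytes at 42488, 57029 and 47159 CPM. On day 7 the mitochondrially encoded ratio lay between -0.10 and 0.47 in the 8 classes compared, and was above 0 in 5. Whether leaking or dying cells have a part in this was not tested. With all deposited barcodes kept, the day 2 ratio was 0.35. Leaving mitochondrial UMIs out of the total put the nuclear ratio on day 2 at -0.30.

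**Figure D4:**
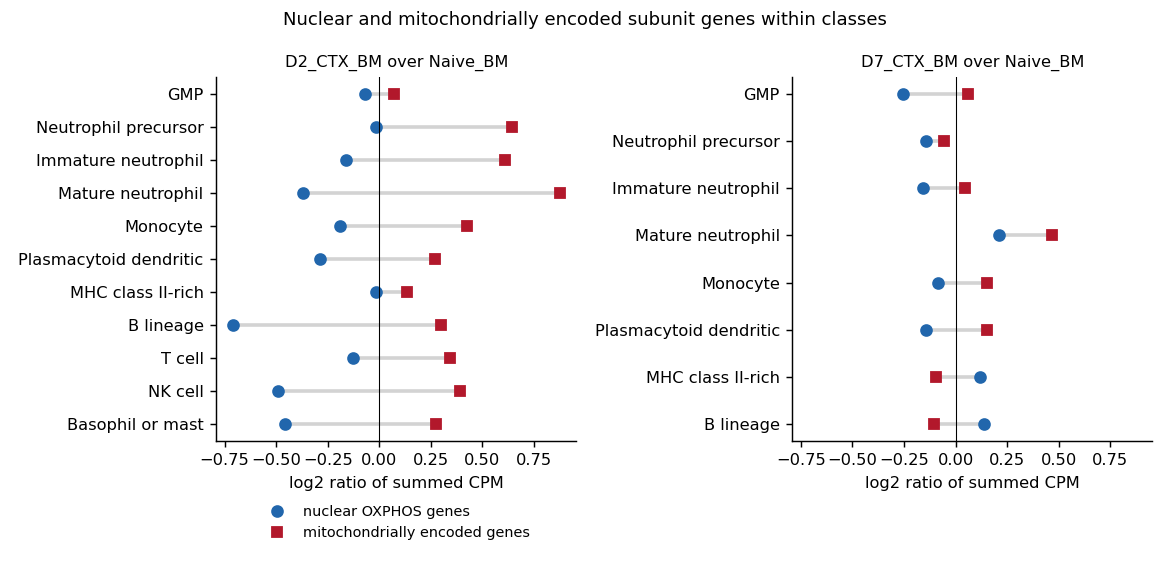
Log2 ratio of summed CPM (horizontal axis) of the nuclear members (circles) and the 13 mitochondrially encoded genes (squares) within each class with at least 50 cells in each library, for day 2 (left) and day 7 (right) over naive BM. On day 2 the circles lie below 0 and the squares above 0 in all 11 classes.

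Both sets of genes were lower with each step of the neutrophil series in naive BM. From GMP to mature neutrophils the mitochondrially encoded genes were 9.86-fold lower in naive BM and 7.43-fold lower on day 7. They were 5.64-fold lower on day 2, where the GMP class stood apart as above. Unlike the nuclear ratios, these folds were not computed with the most abundant genes left out. Nuclear UMIs per mitochondrially encoded UMI were 0.506 in GMP, 0.976 in precursors, 1.16 in immature and 1.23 in mature neutrophils of naive BM.

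Cells with at least 3 UMIs of 10 cell cycle genes per 10000 UMIs were called cycling. In a cell with few UMIs a lone UMI of these genes met this limit. Cycling cells had a higher share of OXPHOS UMIs than non-cycling cells of the same class. Median depth of the cycling cells was 1449 UMIs in naive mature neutrophils and 888 in macrophages on day 2. It was 10464.5 in naive BM monocytes. The log2 ratio was above 0 in all 21 pairs of a named class and library with at least 30 cells in each state, from 0.10 to 1.11 with a median of 0.39. In the lowest pair, macrophages on day 2, the interval ran from -0.01 to 0.20. Per cell, these macrophages held 31.0 member UMIs when cycling and 41.1 when non-cycling. The ratios of cycling to non-cycling cells were not set against those of all genes. In naive BM cycling and non-cycling B lineage cells were at 29516 and 19718 CPM (0.58), monocytes at 28449 and 22960 CPM (0.31), and neutrophil precursors at 15553 and 11814 CPM (0.40). In sorted monocytes the ratio was 0.27 in the naive and 0.25 in the CTX library. With each cell thinned to 1000 UMIs, where a lone UMI always met the limit, 16 of 16 pairs were above 0 with a median of 0.25. Between sorted libraries, cycling monocytes were at -0.02 and non-cycling monocytes at 0.01.

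Some subunits of complex IV exist in a general and a tissue-type form that fill the same place. Cox6a2, known as the heart and muscle form of subunit 6a, was at 41.9 CPM in naive BM, 48.9 CPM on day 2 and 15.2 CPM on day 7. It was at 0 CPM in the naive and 2.41 CPM in the CTX sorted library. In the latter, 12 cells had a UMI, of which 3 were among the 2330 cells of the monocyte class. In that monocyte class Cox6a2 was at 0.117 CPM. Plasmacytoid dendritic cells held 1318 of its 1932 UMIs in naive BM, 1227 of 1659 on day 2 and 660 of 1035 on day 7. In that class it was at 1877 CPM in naive BM, 1166 CPM on day 2 and 1246 CPM on day 7, and 107 of 112, 154 of 162 and 78 of 88 cells had a UMI. As background, 0 of 136 T cells and 1 of 437 erythroid cells of naive BM had a UMI, at median depths of 2700.5 and 15573 UMIs, against 5967.5 in the plasmacytoid class. In 91 of 1744 B lineage cells, at a median depth of 2907.5 UMIs, and in 6 of 146 cells of the MHC class II-rich class it was also counted, at 17.5 and 86.7 CPM. Within the class its ratio to naive BM was -0.69 on day 2 and -0.59 on day 7. Its general partner Cox6a1 was at 229 CPM in the same naive cells.

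Cox6b2 had another pattern. In naive BM, erythroid cells held 1846 of its 2667 UMIs, at 229 CPM, and GMP stood at 73.7 CPM, while T cells were at 2.54 CPM. On day 2 it was higher than in naive BM in GMP (73.7 and 243 CPM), neutrophil precursors (26.9 and 88.6 CPM), monocytes (26.7 and 135 CPM) and basophils or mast cells (45.3 and 161 CPM), and close in B lineage cells (11.5 and 12.5 CPM). On day 7 it was at 88.8 CPM in GMP, 24.8 CPM in neutrophil precursors and 39.7 CPM in monocytes. Depth and cycling moved with it. The 5% deepest cells held 76.9% of its UMIs on day 2 and 58.4% in naive BM, and on day 2 it was at 177 CPM in cycling and 26.5 CPM in non-cycling monocytes. Without those deepest cells its day 2 ratio over all cells was 0.15, in place of 0.79 without a pseudocount, while the ratio was 1.48 in GMP, of which fewer than 50 cells were then left on day 2, 1.15 in neutrophil precursors and 1.97 in monocytes.

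The promoter windows of Cox6b2 and of its general partner Cox6b1 are shown because the partners differed on day 2, when Cox6b1 was lower, at 439 CPM in naive BM and 329 CPM (-0.41). They lie at chr7:4753095-4753344 and chr7:30626115-30626364, both on the minus strand, and are the 250 bases before the RefSeq start in GRCm38.p6. Capitals mark the same motifs as above.
Cox6b1: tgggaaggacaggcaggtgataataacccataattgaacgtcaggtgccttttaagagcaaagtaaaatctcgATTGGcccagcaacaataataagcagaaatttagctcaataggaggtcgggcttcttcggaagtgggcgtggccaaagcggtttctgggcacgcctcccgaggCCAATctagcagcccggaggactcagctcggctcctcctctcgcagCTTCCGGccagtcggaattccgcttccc
Cox6b2: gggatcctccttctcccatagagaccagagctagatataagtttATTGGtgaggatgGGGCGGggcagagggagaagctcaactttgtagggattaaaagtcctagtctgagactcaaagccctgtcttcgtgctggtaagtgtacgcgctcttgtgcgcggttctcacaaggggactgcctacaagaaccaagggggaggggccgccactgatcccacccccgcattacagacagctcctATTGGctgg
The Cox6b1 window held 1 ETS and 2 CCAAT matches, and the Cox6b2 window 1 SP1 and 2 CCAAT matches. The windows held 14 and 8 CpG dinucleotides.

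**Figure D5:**
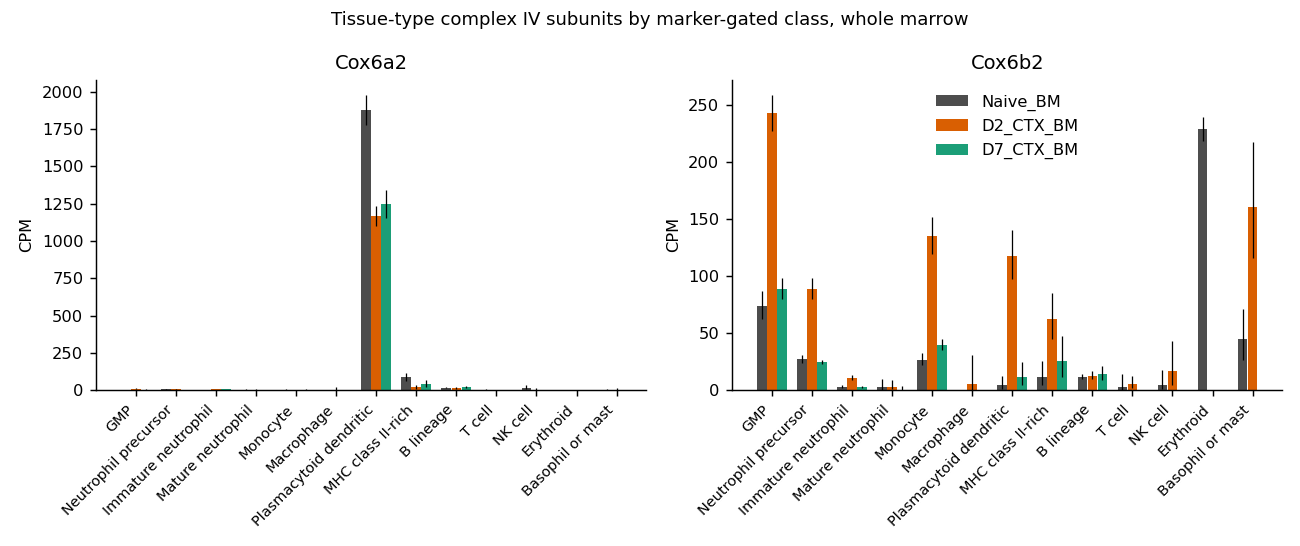
Level (vertical axes, CPM, with 95% Poisson intervals) of Cox6a2 (left) and Cox6b2 (right) by class in the 3 whole-marrow libraries, for classes of at least 50 cells. Cox6a2 stands at 1166 to 1877 CPM in plasmacytoid dendritic cells, and Cox6b2 stands higher on day 2 than in the other libraries within GMP, within neutrophil precursors and within monocytes.

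The subunit c genes Atp5g1, Atp5g2 and Atp5g3, which encode the same mature protein, took 22.2%, 52.5% and 25.3% of their summed UMIs in naive BM, with 49.0% for Atp5g2 and 25.9% for Atp5g3 on day 2, and 18.6%, 58.0% and 23.4% on day 7. In GMP of naive BM, Atp5g1 took 31.8% and Atp5g2 50.5%, and in B lineage cells 15.8% and 58.8%. Cox7a1, the muscle form of subunit 7a, was at 3.13 CPM in naive BM, where Cox7a2 was at 485 CPM and Cox7a2l at 237 CPM. Cox7b and Cox8a had no counted UMI of their partners Cox7b2, Cox8b and Cox8c beside them.

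Other genes of mitochondrial metabolism, from lists chosen with earlier results known, were compared with the same limits. Of all genes tested, 8.77% were lower and 23.4% higher on day 2, 50.9% were lower on day 7, and in sorted monocytes 0.742% were higher and 2.56% lower. Of 13 citric acid cycle genes, 1 of 13 tested, Idh3b, was lower on day 2 and 9 of 12 on day 7, with summed ratios of -0.06 and -0.57. Of 10 genes of electron carriers and transport, none of 9 tested was lower on day 2 and 5 of 9 on day 7 (-0.12 and -0.56). Of 29 further assembly factors, 2 of 12 tested were lower on day 2 and 7 of 11 on day 7 (-0.42 and -0.85). The 2 were Cox20 (-0.59) and Atpif1, an inhibitor of ATP synthase, at 625 CPM in naive BM and 342 CPM on day 2 (-0.87). Atpif1 alone gave these 625 of the list's 1498 CPM in naive BM and 342 of 1118 CPM on day 2. On day 7 it gave 256 of 830 CPM, so the summed ratios of this list leaned on 1 gene. The median tested gene of the list was at -0.24 on day 2 and -0.66 on day 7. Of 12 regulators of mitochondrial gene expression, 1 of 5 tested was higher on day 2 and 3 of 3 were lower on day 7 (0.08 and -0.92), and the 1 was Myc, at 17.1 CPM in naive BM and 31.6 CPM on day 2. The 10 cell cycle genes were lower in whole BM at both times, 9 of 10 on day 2 and 8 of 10 on day 7 (-0.97 and -0.97). Within classes their sum went both ways on day 2. It was higher in neutrophil precursors (2338 CPM in naive BM, 3231 CPM on day 2) and monocytes (2239 and 3058 CPM). In the GMP class it went from 1741 to 2723 CPM. B lineage cells went from 4643 to 306 CPM, and NK cells from 3042 to 605 CPM. In sorted monocytes the summed ratios of the lists lay between -0.04 and 0.24, with Etfb (0.55) the only listed gene higher and Cox16 (-0.72) the only one lower by 0.5.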

How the data were processed

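Per the labels and the study's methods, the authors made 5 single-cell libraries with the 10x 3′ assay and Cell Ranger 3.1 on mm10, and deposited raw counts, in which each UMI of a gene in a barcode counts once and nothing was normalized. The study's own analysis used Seurat 5.0, which was not run here. Members and lists were chosen with earlier results of these data known.

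Barcodes with at least 200 genes and under 20% mitochondrial UMIs were kept. Marker levels were scaled to their 90th percentile in cells with a UMI, capped and averaged, and a cell joined the class with the highest score if this was at least 0.3 and led by 0.08. Other cells stayed unassigned, and no doublet caller was run. Levels are summed UMIs in CPM with exact Poisson intervals. Ratio intervals are exact conditional (Clopper-Pearson) ones without a pseudocount. Gene ratios used a pseudocount of 1 CPM, genes with at least 200 UMIs and a mean of at least 20 CPM, and a limit of 0.5 log2 units. Named genes are the 5 highest and 5 lowest ratios of each comparison, the Sdh genes, the paralog families and the highest member of each complex, and others were named after their values were seen. Ratios, their intervals and the fold limit were tested on simulated Poisson counts, which hold no spread between cells or mice. Thinning was tested on cells of the naive BM library. The gate, the composition arithmetic, the cycling call and the motif matching were not tested in this way. Promoters came from RefSeq (GRCm38.p6). Python 3.11.15, numpy 2.4.6, scipy 1.17.1, pandas 2.3.3 and matplotlib 3.10.9 were used.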

Additional observations from a re-analysis of the deposited data

Results flagged for a closer look

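Some results went one way on day 2 and the other way on day 7 against the same naive BM library. With 1 library per group, the difference between the days was not tested. The mitochondrially encoded genes were at 0.32 on day 2 and -0.65 on day 7 in whole BM, and at 0.30 and -0.10 in B lineage cells. Within the 8 classes compared on day 7 their ratio lay between -0.10 and 0.47, and was above 0 in 5. The nuclear members were at -0.71 and 0.14 in B lineage cells, and at -0.37 and 0.21 in mature neutrophils. Cox6b2 was at 0.78 and -1.17 in whole BM, and at 0.15 on day 2 without the 5% deepest cells of each library. Within GMP it was at 73.7 CPM in naive BM and 88.8 CPM on day 7. It was at 26.7 and 39.7 CPM in monocytes, and at 26.9 and 24.8 CPM in neutrophil precursors.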

How the results depend on the processing

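No paired analysis was possible because each group was 1 library. The cause of each shift below was not tested unless the setting itself states it. Levels are given for naive BM, day 2, day 7, naive sorted and CTX sorted, in CPM, and ratios as day 2 over naive, day 7 over naive and day 7 over day 2. The day 2 ratio kept its direction in every setting, while day 7 over day 2 turned above 0 in 5 of 8.

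With at least 500 genes and under 10% mitochondrial UMIs, levels were 21705 CPM in naive BM, 17472 CPM on day 2 and 25511 CPM in CTX sorted monocytes, ratios -0.57 (day 7 over naive) and -0.25 (day 7 over day 2), and monocytes -0.17 on day 2. With all barcodes, levels were 21281, 17166, 14641, 24810 and 25073 CPM, ratios -0.54 and -0.23 for day 7 over naive and over day 2, and mitochondrially encoded ratios 0.35, -0.65, -1.01 and, sorted, 0.026. Without mitochondrial UMIs in the total, levels were 22376, 18192, 15025, 26296 and 26582 CPM, ratios -0.30, -0.57 and -0.28, and monocytes -0.17 on day 2. Without the 20 most abundant genes, levels were 29451, 23243, 27221, 29857 and 30177 CPM, ratios -0.34, -0.11 and 0.23, monocytes -0.21 on day 2 and 0.00383 when sorted. As means of cells' own CPM, levels were 17275, 12343, 13222, 23824 and 24027 CPM, ratios -0.48, -0.39 and 0.10, and monocytes -0.29 on day 2 and -0.045 on day 7. Without the 5% deepest cells, levels were 18948, 13151, 13797, 24870 and 25081 CPM, ratios -0.53, -0.46 and 0.069, and monocytes -0.36 on day 2. Thinned to 1000 UMIs per cell, levels were 17256, 12677, 13147, 23821 and 23871 CPM, ratios -0.44, -0.39 and 0.053, monocytes -0.30 on day 2 and -0.042 on day 7, and the sorted ratio 0.00299 (0.00174 in the monocyte class). No value was computed for GMP on day 2 without the deepest cells, since fewer than 50 cells were left. A stricter gate put monocytes at -0.21 on day 2.

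Scaled to the median gene, ratios were -0.46, -0.042, 0.38 and, sorted, -0.014, with 32 members lower on day 2, 1 higher and 7 lower on day 7, and 31 higher and 4 lower for day 7 over day 2. At a limit of 1 log2 unit, 0 members were higher and 0 lower on day 2, 8 lower on day 7 and 6 lower for day 7 over day 2. With no filter, 1 member, Cox6a2, was higher in the CTX sorted library, where it was at 0.117 CPM in the monocyte class. Without unassigned cells, composition alone gave -0.19, -0.45 and -0.15, of whole ratios of -0.41, -0.58 and -0.16 in the same cells. With unassigned cells kept, levels alone gave -0.20, -0.0059 and 0.041. In naive sorted monocytes Cox6a2 took 0% of the Cox6a UMIs (12.6% in whole BM) and Cox6b2 4.86% of the Cox6b UMIs (11.6%). A pseudocount of 0.1 CPM, the run of Cox6b2 without the deepest cells, and the neutrophil series without the most abundant genes or set against the median gene were chosen after seeing the data. In that series the last step on day 7, at 0.14, was also below 0 without the 20 most abundant genes of the library, at -0.24.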

Other observations

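Barcodes removed by the cell filter, 315 to 545 per library, held 28.6% to 52.8% mitochondrially encoded UMIs. Their nuclear OXPHOS level was 6149 CPM in naive BM, 6762 CPM in D2 CTX BM, 7219 CPM in D7 CTX BM, 5050 CPM in naive sorted and 5749 CPM in CTX sorted monocytes, well below the kept cells of the same libraries.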
